A study of Homo sapiens with 2 samples.

Results

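The genes described here are the 10 members of the MYC, MAX and MXD network, taken by gene symbol from a deposited table of 23709 genes: MYC, MYCN, MAX, MXD1, MXD3, MXD4, MXI1, MNT, MLX and MGA. All 10 were found, each paired with 1 RefSeq record. All 10 also reached a mean of at least 1 RPKM over both libraries, as did 13402 genes of the table, which are called expressed below. RPKM is the read number scaled to transcript length in kilobases and to library size.

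The RNC-mRNA library was made from poly(A) RNA recovered with ribosome-nascent chain complexes, so it samples the mRNAs that ribosomes are translating. The mRNA library was made from poly(A) RNA of total RNA. Both came from Caco-2, a cell line from a human colorectal adenocarcinoma, which can form layers resembling enterocytes and carries a truncated APC tumour suppressor. The cells of both libraries were grown in DMEM with fetal bovine serum, penicillin, streptomycin and ciprofloxacin, and the labels name no other treatment. Each kind of RNA was sequenced in 1 library, so no difference below could be checked against replicates. Whether both RNAs came from 1 culture is not stated in the labels.

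MYC, MYCN and their relatives are transcription factors of the basic helix-loop-helix leucine zipper class. They bind DNA as dimers with MAX, at E-boxes of the sequence CACGTG, and raise the transcription of genes for ribosome production, metabolism and cell division. The MXD proteins, MXI1 and MNT also dimerise with MAX at E-boxes but recruit SIN3 and histone deacetylases, which repress transcription. They therefore compete with MYC for MAX and for sites. MLX pairs with MLXIP (MondoA) and MLXIPL (ChREBP), which respond to glucose metabolites, and with some MXD proteins and MNT. MGA is a large factor that joins MAX to a Polycomb complex. In the intestine, MYC is a target of the Wnt pathway and of beta-catenin, which loss of APC function leaves active.

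The members MXD4, MNT and MLX carry the E-box of their own network in the RefSeq promoter (build GRCh38.p14, 250 bases before to 50 bases after each annotated start), and the stretches around it are shown because it is the site that these proteins bind. The capitals mark CACGTG, which reads the same on both strands. The deposited table gives no coordinates.
MXD4 (chr4:2262312-2262359, minus strand): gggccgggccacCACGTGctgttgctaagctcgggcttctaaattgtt
MNT (chr17:2401218-2401283, minus strand): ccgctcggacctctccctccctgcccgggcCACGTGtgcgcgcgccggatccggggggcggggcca
MLX (chr17:42567020-42567085, plus strand): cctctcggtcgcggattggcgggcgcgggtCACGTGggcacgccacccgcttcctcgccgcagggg
The first base of the motif lay 238 bases upstream of the start in MXD4, 193 bases upstream in MNT and 50 bases upstream in MLX. The promoters matched for MYCN, MXD1, MXD3, MXI1, MAX and MGA held none. No promoter was matched for MYC, so that of MYC was not searched. Of the 9 members matched in the promoter table, 3 (33.3%) held the motif in at least 1 promoter, against 12.6% of the 10246 expressed genes matched. The match is a description of these letters and says nothing about binding in Caco-2 cells.

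The depth worked out from the RPKM values was 11083302 reads for the RNC-mRNA library and 9640364 reads for the mRNA library. The RPKM values were computed by the authors. Intervals below are 95% intervals from the recovered reads and cover counting error only, since PCR copies are not independent molecules. As a check of the cell type, 12 of 14 epithelial and enterocyte markers were expressed, with a summed level of 5792 RPKM in the RNC-mRNA library and 6330 RPKM in the mRNA library. They included the keratin KRT8 at 1693 RPKM in the RNC-mRNA library and 1490.0 RPKM in the mRNA library, and the gut and liver factor HNF4A at 95.2 RPKM in the RNC-mRNA library and 77.4 RPKM in the mRNA library. KRT20 and GPA33 stayed below 1 RPKM in both. Of 15 markers of blood, endothelial, stromal and glial cells, 7 were expressed and summed to 47.7 RPKM in the RNC-mRNA library and 75.3 RPKM in the mRNA library, most of it from the collagen gene COL1A1 with 26.1 RPKM in the RNC-mRNA library and 46.8 RPKM in the mRNA library. HBB was listed at 0 in both libraries.

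The translating RNA held relatively more of the mRNAs for MYC, MYCN and MAX, and relatively less of those for MXD3 and MXI1. The quantity compared is the translation ratio, log2((RNC-mRNA + 0.1) / (mRNA + 0.1)) in RPKM, with the median over the expressed genes subtracted. Only MYCN was at least 2-fold above that median, which was the case for 1.37% of expressed genes, and no member was at least 2-fold below it, against 11.8% of expressed genes. The counting interval lay wholly above the median for 4 members (background 31.5%), namely MYCN, MYC, MAX and MGA. It lay wholly below for 4 members (background 31.4%), namely MXD3, MXI1, MNT and MXD4. For MLX and MXD1 it included the median. The calls for MGA, MNT, MXD4 and MLX depend on where the centre is put. The median of the 10 members was 0.03 (order-statistic interval -0.60 to 0.66), or -0.09 when centred on genes with a mean of at least 10 RPKM, and single members spread from -0.93 to 1.11. The summed level of all 10 was 173.9 RPKM in the RNC-mRNA library and 141.4 RPKM in the mRNA library, 0.34 above the median on the log2 scale.

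**Figure D1:**
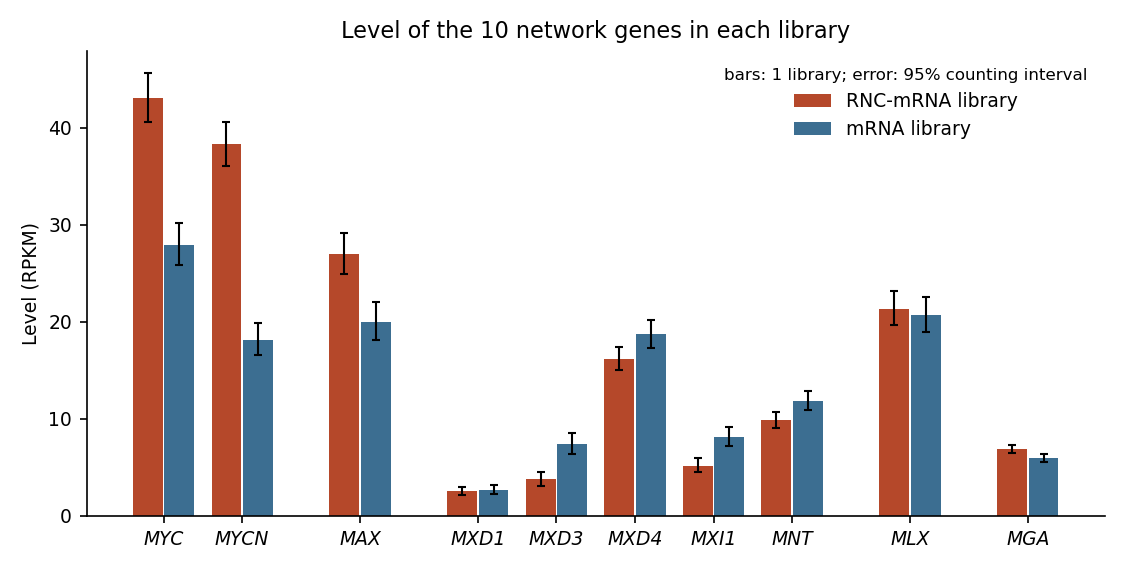
Level of each network gene in RPKM (vertical axis), with the RNC-mRNA library left of the mRNA library and genes grouped by role. Each bar is 1 library and the error bar its exact Poisson 95% counting interval; MYC stands at 43.1 RPKM in the RNC-mRNA library and 27.9 RPKM in the mRNA library, and MXD3 at 3.73 RPKM in the RNC-mRNA library and 7.36 RPKM in the mRNA library.

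MYC, the broadly expressed member of its family, was the most abundant network mRNA in both libraries. It had 43.1 RPKM in the RNC-mRNA library (interval 40.6 to 45.6, 1129 reads) and 27.9 RPKM in the mRNA library (interval 25.8 to 30.2, 637 reads). The level was thus 1.54-fold higher in the RNC-mRNA library, and the intervals of the libraries did not overlap. Its translation ratio was 0.66 (interval 0.52 to 0.81), exceeded by 5.26% of expressed genes. Of the expressed genes, 14.3% had a higher level than MYC in the RNC-mRNA library and 21.4% in the mRNA library.

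MYCN, the family member best known from the developing nervous system and neuroblastoma, was also well represented in these colorectal cells. It had 38.3 RPKM in the RNC-mRNA library (interval 36.0 to 40.6, 1105 reads) and 18.2 RPKM in the mRNA library (interval 16.5 to 19.9, 456 reads), 2.11-fold higher in the RNC-mRNA library. Its translation ratio of 1.11 (interval 0.96 to 1.27) was the highest of the network and was exceeded by 0.985% of expressed genes. The lower counting limit fell just short of the 2-fold line. Centred on genes with a mean of at least 10 RPKM, the ratio of MYCN was 0.99, below that line, and that of MXD3 was -1.04, beyond 2-fold below. MYCN shares 98 of the 2602 bases of its transcript with exons of the antisense gene MYCNOS, which had 1.64 RPKM in the RNC-mRNA library and 1.08 RPKM in the mRNA library. Strand is not recorded here, and the part of antisense reads in the MYCN values was not tested.

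The ratio of MYCN exceeded that of MYC by 1.37-fold (interval 1.18 to 1.59). MYC was 1.12-fold as abundant as MYCN in the RNC-mRNA library (interval 1.04 to 1.22) and 1.54-fold as abundant in the mRNA library (interval 1.36 to 1.73). MYCL1, the third family member and not in the set of 10, was weakly expressed. It had 2.61 RPKM in the RNC-mRNA library and 2.38 RPKM in the mRNA library, with a ratio of 0.17 (interval -0.25 to 0.61) that included the median.

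MAX, the obligate partner of MYC and a partner of its antagonists, had 26.9 RPKM in the RNC-mRNA library (interval 24.9 to 29.1) and 20.01 RPKM in the mRNA library (interval 18.1 to 22.04). Its ratio was 0.46 (interval 0.29 to 0.65), higher than that of 87.3% of expressed genes. Exons of the antisense gene AL139022.1 cover 108 of the 2141 bases of the MAX transcript, and their part in the MAX values was not tested. The ratio of MYC exceeded that of MAX by 1.15-fold, with an interval of 0.98 to 1.34 that includes equality. The summed level of MYC and MYCN was 3.02-fold that of MAX in the RNC-mRNA library (interval 2.77 to 3.30) and 2.30-fold in the mRNA library (interval 2.06 to 2.58). When the antagonists MXD1, MXD3, MXD4, MXI1 and MNT were added, the summed partners were 4.41-fold the level of MAX in the RNC-mRNA library (interval 4.06 to 4.797) and 4.73-fold in the mRNA library (interval 4.27 to 5.25). These are ratios of mRNA levels per length; protein was not measured.

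**Figure D2:**
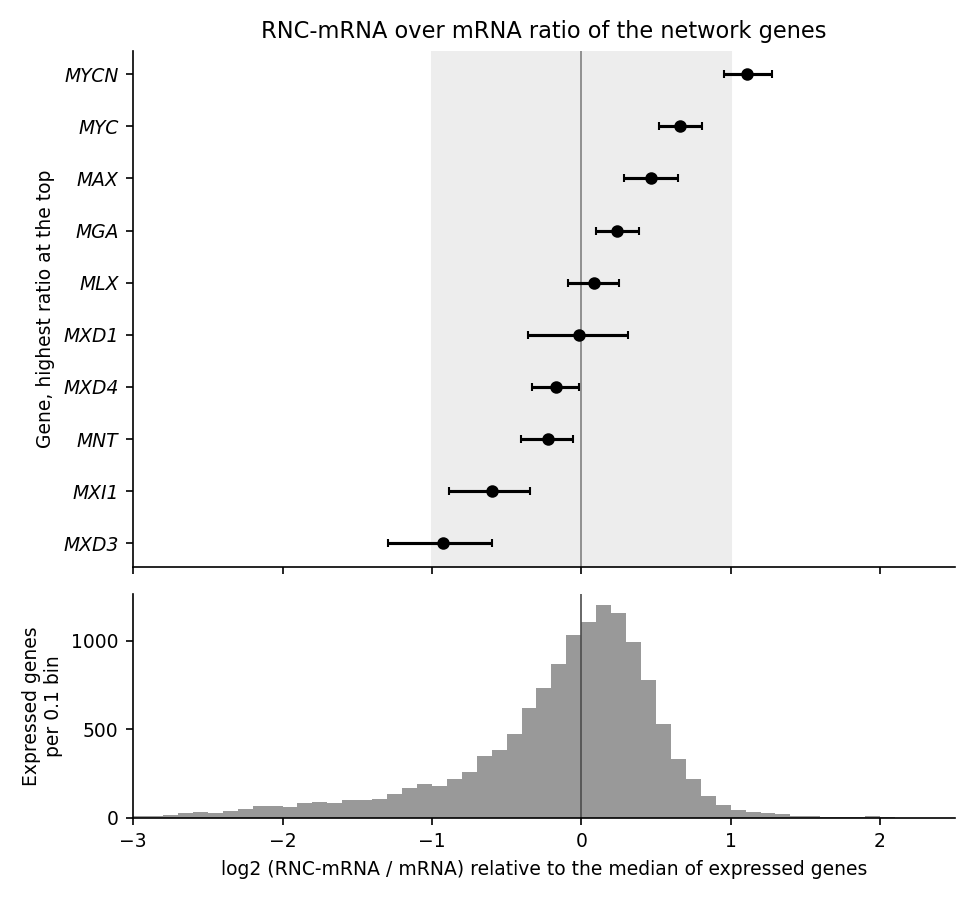
Translation ratio of each network gene (upper panel, log2, relative to the median of expressed genes), with exact 95% counting intervals and the zone within 2-fold of the median in grey, over a histogram of all expressed genes in bins of 0.1 (lower panel, which leaves out 126 genes beyond its axis). MYCN lies at 1.11 beyond the 2-fold line, and MXD3 lies lowest at -0.93.

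The antagonists lay at or below the median. MXD4, the most abundant of them, had 16.2 RPKM in the RNC-mRNA library (interval 15.0 to 17.4) and 18.7 RPKM in the mRNA library (interval 17.3 to 20.2). Its ratio was -0.17 (interval -0.33 to -0.02). In the mRNA library MXD4 was as abundant as MYCN within counting error, at 1.03-fold its level (interval 0.91 to 1.16), whereas in the RNC-mRNA library it ranked below MYC, MYCN, MAX and MLX.

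MNT, a widely expressed MAX partner that antagonises MYC in proliferating cells too, had 9.86 RPKM in the RNC-mRNA library (interval 9.04 to 10.7) and 11.8 RPKM in the mRNA library (interval 10.9 to 12.9). The intervals of the libraries did not overlap, and its ratio was -0.22 (interval -0.40 to -0.05). Exons of the antisense gene AC006435.1 cover 1065 of the 4996 bases of the MNT transcript, and its part in the MNT values was not tested. MXD4 and MNT did not differ in ratio beyond counting error (1.04-fold, interval 0.88 to 1.22).

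MXI1, also called MXD2 and known as a hypoxia-induced antagonist, had 5.15 RPKM in the RNC-mRNA library (interval 4.46 to 5.92, 198 reads) and 8.07 RPKM in the mRNA library (interval 7.14 to 9.09, 270 reads). The level was 1.57-fold lower in the RNC-mRNA library, and the intervals did not overlap. Its ratio was -0.60 (interval -0.88 to -0.34), with 80.7% of expressed genes higher. Exons of the antisense gene AL360182.2 cover 205 of the 3470 bases of the MXI1 transcript, and their part in the MXI1 values was not tested.

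MXD3, an antagonist that in contrast to its relatives is known to be expressed in proliferating cells during S phase, had 3.73 RPKM in the RNC-mRNA library (interval 3.06 to 4.49, 110 reads) and 7.36 RPKM in the mRNA library (interval 6.35 to 8.49, 189 reads). The level was 1.98-fold lower in the RNC-mRNA library. Its ratio of -0.93 (interval -1.30 to -0.60) was the lowest of the network, with 87.3% of expressed genes higher. In GENCODE release 29, 1158 of the 2269 bases of the transcript matched to its record lie under exons of PRELID1 on the other strand. PRELID1 had 316 RPKM in the RNC-mRNA library and 216 RPKM in the mRNA library, and its part in the MXD3 values was not tested.

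MXD1, induced in many cell types as they differentiate, was the least abundant member in both libraries. It had 2.55 RPKM in the RNC-mRNA library (interval 2.17 to 2.98, 159 reads) and 2.66 RPKM in the mRNA library (interval 2.24 to 3.13, 144 reads). These intervals overlapped, and the ratio of -0.02 (interval -0.35 to 0.32) lay at the median.

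The balance of MYC-type to MXD-type mRNA therefore differed between the libraries. The summed level of MYC and MYCN was 81.3 RPKM in the RNC-mRNA library and 46.1 RPKM in the mRNA library. That of MXD1, MXD3, MXD4, MXI1 and MNT was 37.5 RPKM in the RNC-mRNA library and 48.6 RPKM in the mRNA library. MYC and MYCN were thus 2.17-fold the 5 antagonists in the RNC-mRNA library (interval 2.04 to 2.32) and 0.95-fold in the mRNA library (interval 0.88 to 1.02), a difference of 2.29-fold (interval 2.08 to 2.53). This quotient is formed within each library and does not depend on how the libraries are scaled to each other. With MYC alone in the numerator the difference was 2.00-fold (interval 1.78 to 2.25), and with MYCN alone 2.74-fold (interval 2.41 to 3.11). With MXD3 left out, an alternative chosen after seeing its overlap with PRELID1, it was 2.16-fold (interval 1.95 to 2.39). Of the summed RPKM of all 10 members, MYC and MYCN held 46.8% in the RNC-mRNA library and 32.6% in the mRNA library, and the 5 antagonists held 21.5% in the RNC-mRNA library and 34.4% in the mRNA library. The members of each sum were chosen by role with the earlier results of these libraries known.

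MLX, the partner of MLXIP and MLXIPL, had 21.3 RPKM in the RNC-mRNA library (interval 19.7 to 23.1) and 20.7 RPKM in the mRNA library (interval 18.9 to 22.6). Its ratio was 0.08 (interval -0.09 to 0.26). Exons of PSMC3IP on the other strand cover 770 of the 2586 bases of the MLX transcript, and PSMC3IP had 6.86 RPKM in the RNC-mRNA library and 9.26 RPKM in the mRNA library. The partners of MLX, which are not in the set of 10, went separate ways. MLXIP had 18.7 RPKM in the RNC-mRNA library and 16.5 RPKM in the mRNA library, a ratio of 0.22 (interval 0.13 to 0.31). MLXIPL, which drives glycolytic and lipogenic genes in liver and gut, had 5.15 RPKM in the RNC-mRNA library (187 reads) and 19.999 RPKM in the mRNA library (632 reads). Its ratio of -1.90 (interval -2.16 to -1.68) lay wholly beyond 2-fold below the median. MLXIP was 3.64-fold as abundant as MLXIPL in the RNC-mRNA library (interval 3.14 to 4.22) and 0.83-fold in the mRNA library (interval 0.75 to 0.91), a 4.40-fold difference (interval 3.70 to 5.24).

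MGA, which has the longest transcript of the set at 12042 bases, had 6.85 RPKM in the RNC-mRNA library (interval 6.41 to 7.31, 914 reads) and 5.94 RPKM in the mRNA library (interval 5.50 to 6.40, 689 reads). Its ratio was 0.24 (interval 0.10 to 0.39), between those of MAX and MLX and not separable from either by counting error. Of the 45 pairs of members, the interval of the quotient of ratios excluded equality in 36, without adjustment for the number of pairs.

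By level, the order in the RNC-mRNA library was MYC, MYCN, MAX, MLX, MXD4, MNT, MGA, MXI1, MXD3 and MXD1, and each neighbour differed from the next beyond counting error. In the mRNA library the order was MYC, MLX, MAX, MXD4, MYCN, MNT, MXI1, MXD3, MGA and MXD1. There the steps from MLX to MAX, from MAX to MXD4, from MXD4 to MYCN and from MXI1 to MXD3 were within counting error. By ratio, only the steps from MYCN to MYC (1.37-fold) and from MNT to MXI1 (1.304-fold, interval 1.04 to 1.63) exceeded counting error.

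The ratio moved with level over all expressed genes, and members were therefore also set beside genes of their own level. The 2379 genes with a mean of 20 to 50 RPKM had a median ratio of 0.14, and 0.925% of them were at least 2-fold above the median over every level. MYC, MYCN and MAX lay above the band median of 0.14. MLX lay below it, with a counting interval (-0.09 to 0.26) that included it. The 5231 genes of 5 to 20 RPKM had a median of 0.01, with 7.51% at least 2-fold below. MXD3, MXI1, MNT and MXD4 lay below it and MGA above it. The 4240 genes of 1 to 5 RPKM had a median of -0.31. MXD1 lay above it, with a counting interval (-0.35 to 0.32) that included it.

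**Figure D3:**
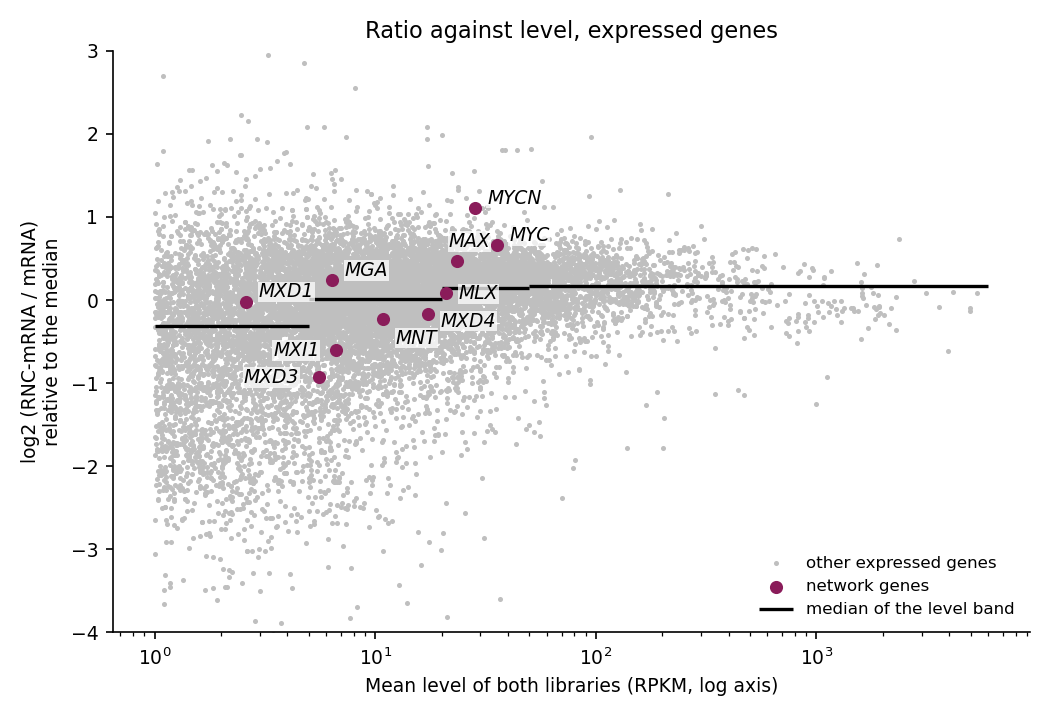
Translation ratio (vertical axis, log2, relative to the median of expressed genes) against mean level of both libraries (horizontal log axis, RPKM). Grey points are expressed genes, of which 79 lie outside the vertical range, black lines are medians of 4 level bands, and purple points are the network genes; MYC, MYCN and MAX lie above the median of their band at 0.14, and MXD3 and MXI1 lie below that of theirs at 0.01.

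The lists around the network are described against the median over every level, and their medians also depend on where that centre is put. Centring on genes with a mean of at least 10 RPKM lowered each list median by 0.12, and the medians after that change are given where they moved by over 1.5 times.

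Other basic helix-loop-helix factors, with or without a leucine zipper, and the ID inhibitors included genes well away from the median on both sides. Of 23 such genes, 20 were expressed, with a median ratio of 0.13 (interval -0.06 to 0.36), with 3 genes 2-fold or more above (1.37% of expressed genes) and 1 gene 2-fold or more below (11.8% of expressed genes). Centred on abundant genes, the list median was 0.01. HES1, a Notch target that represses differentiation genes, had 86.5 RPKM in the RNC-mRNA library and 40.8 RPKM in the mRNA library (1.12). ID1, which blocks DNA binding by dimerisation, had 49.1 RPKM in the RNC-mRNA library and 21.7 RPKM in the mRNA library (1.21). ID3, a relative of ID1, had 4.66 RPKM in the RNC-mRNA library and 1.93 RPKM in the mRNA library (1.27, interval 0.61 to 2.07). BHLHE40, a repressor induced by hypoxia and in the circadian clock, had 5.26 RPKM in the RNC-mRNA library and 11.6 RPKM in the mRNA library (-1.09). SREBF2, the sterol-regulated factor and with HES1 the most abundant of the list by the mean of both libraries, had a ratio of 0.26.

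No cofactor of either arm was 2-fold away from the median, against 1.37% of expressed genes at least 2-fold above and 11.8% below. Among genes of 20 to 50 RPKM these shares were 0.925% and 2.52%, and at 5 to 20 RPKM 0.975% and 7.51%. Coactivators and other MYC-binding proteins had 15 of 23 expressed members above the median (median 0.19, interval -0.07 to 0.38, and 0.07 centred on abundant genes). RUVBL2, a helicase of chromatin-remodelling complexes, had 140 RPKM in the RNC-mRNA library and 109 RPKM in the mRNA library (0.40). SMARCB1, a SWI/SNF subunit, had a ratio of 0.29. CDC73 of the PAF1 complex was highest (0.74) and BPTF of the NURF remodeller lowest (-0.44). SIN3, histone deacetylase and NCOR corepressors had 10 of 19 members above the median (median 0.05, interval -0.11 to 0.19, and -0.07 centred on abundant genes). The SIN3 scaffolds that MXD proteins bind differed from each other. SIN3A was highest of the list, with 19.4 RPKM in the RNC-mRNA library and 15.8 RPKM in the mRNA library (0.33, interval 0.21 to 0.45). SIN3B, chosen after its values were seen, had 8.76 RPKM in the RNC-mRNA library and 13.2 RPKM in the mRNA library (-0.55, interval -0.72 to -0.38). ARID4A was lowest (-0.63), and the abundant RBBP7 had a ratio of -0.11.

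The Polycomb complex that MGA joins had 9 of 12 members above the median (median 0.20, interval -0.01 to 0.52, and 0.08 centred on abundant genes). PCGF6, its defining Polycomb ring finger, was highest at 0.76 (interval 0.40 to 1.16), with 6.96 RPKM in the RNC-mRNA library and 4.19 RPKM in the mRNA library. TFDP1, the dimer partner of E2F factors, had 57.2 RPKM in the RNC-mRNA library and 41.1 RPKM in the mRNA library (0.52). CBX3, a heterochromatin protein, was at -0.11, and YAF2, a binding protein of the ring finger subunits, was lowest at -0.75 (interval -1.11 to -0.45).

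Genes listed for turnover of the MYC protein, together with the MYC-binding MYCBP, MYCBP2 and BIN1, lay mostly above the median. Of 24 genes, 23 were expressed and 20 lay above it (median 0.33, interval 0.12 to 0.48). None was 2-fold away, against 1.37% of expressed genes at least 2-fold above and 11.8% below. The median levels of the list were 25.1 RPKM in the RNC-mRNA library and 21.2 RPKM in the mRNA library. Genes of 20 to 50 RPKM had a median ratio of 0.14, with 0.925% at least 2-fold above and 2.52% below. Centred on abundant genes, the list median was 0.21. PPP2R1A, the scaffold of the phosphatase that acts on MYC, had 161 RPKM in the RNC-mRNA library and 152 RPKM in the mRNA library (0.12). PLK1, a mitotic kinase, had 114 RPKM in the RNC-mRNA library and 79.1 RPKM in the mRNA library (0.57). MYCBP2 was lowest (-0.28). RNA-binding proteins and initiation factors listed as regulators of MYC expression had 20 of 24 members above the median (median 0.34, interval 0.19 to 0.41, and 0.22 centred on abundant genes). Their median levels were 93.7 RPKM in the RNC-mRNA library and 84.8 RPKM in the mRNA library, and genes of 50 RPKM and more had a median ratio of 0.17. YBX1 had 553 RPKM in the RNC-mRNA library and 372 RPKM in the mRNA library (0.61). PABPC1, the poly(A)-binding protein, had a ratio of 0.22. The cap-binding factor EIF4E was highest (0.72) and TIA1, a stress granule protein, lowest (-0.20).

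Genes that MYC is known to induce, most of them in ribosome production and metabolism, lay above the median in 48 of 67 expressed members (median 0.22, interval 0.08 to 0.34). Of the 67, 0 were at least 2-fold away, against 1.37% of expressed genes above and 11.8% below. At 20 to 50 RPKM those shares were 0.925% and 2.52%. The median levels of the list were 45.3 RPKM in the RNC-mRNA library and 47.5 RPKM in the mRNA library. The interval of its median ratio holds the medians of all genes of 20 to 50 RPKM (0.14) and of 50 RPKM and more (0.17). Centred on abundant genes, the list median was 0.10. NPM1, a nucleolar chaperone, had 636 RPKM in the RNC-mRNA library and 493 RPKM in the mRNA library (0.41). ENO1, a glycolytic enzyme, had 499 RPKM in the RNC-mRNA library and 553 RPKM in the mRNA library (-0.11). SRM, which makes the polyamine spermidine, was highest, with 144 RPKM in the RNC-mRNA library and 80.3 RPKM in the mRNA library (0.88, interval 0.77 to 0.99). TERT, the telomerase catalytic subunit, was lowest at -0.52 on 43 RNC-mRNA reads and 57 mRNA reads (interval -1.18 to 0.03). Genes that MYC is known to repress had 11 of 21 members above the median (median 0.02, interval -0.43 to 0.33, and -0.10 centred on abundant genes). Of these, 1 lay at least 2-fold above (1.37% of expressed genes) and 1 at least 2-fold below (11.8% of expressed genes). THBS1, an inhibitor of blood vessel growth, had 9.27 RPKM in the RNC-mRNA library and 3.78 RPKM in the mRNA library (1.31). COL1A2, a collagen chain, had 7.09 RPKM in the RNC-mRNA library and 15.0 RPKM in the mRNA library (-1.03). COL1A1, counted above as a stromal marker, was likewise lower in the RNC-mRNA library, at the levels given there. Both libraries came from the Caco-2 cell line, and the source of the collagen reads was not tested. FTH1, the ferritin heavy chain, had 757 RPKM in the RNC-mRNA library and 1472 RPKM in the mRNA library (-0.92), and CEBPA had a ratio of 0.80. NPM1, ENO1, YBX1, PABPC1 and FTH1 have many pseudogene copies, so their reads are uncertain.

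Targets of MLX and its partners had a median of 0.07 in 16 expressed members of 17 (interval -0.27 to 0.47, and -0.05 centred on abundant genes). None was at least 2-fold above, against 1.37% of expressed genes. Of the 16, 2 were at least 2-fold below, a share near the 11.8% of expressed genes. G6PC, the glucose-6-phosphatase of liver and gut, had 0.78 RPKM in the RNC-mRNA library and 3.17 RPKM in the mRNA library (-1.85, interval -2.56 to -1.44). PKLR, the liver pyruvate kinase, had 0.62 RPKM in the RNC-mRNA library and 1.74 RPKM in the mRNA library (-1.31, interval -2.25 to -0.68). The abundant SCD, a fatty acid desaturase, had a ratio of 0.41 and the glucose transporter SLC2A1 one of 0.14, and ELOVL6 was highest (0.76). Regulators upstream of MYC lay above the median in 11 of 15 members (median 0.04, interval -0.10 to 0.41, and -0.08 centred on abundant genes). CTNNB1, which encodes beta-catenin, had 58.1 RPKM in the RNC-mRNA library and 53.8 RPKM in the mRNA library (0.15). MAPK3 was at 0.01 and E2F1 was lowest (-0.47).

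**Figure D4:**
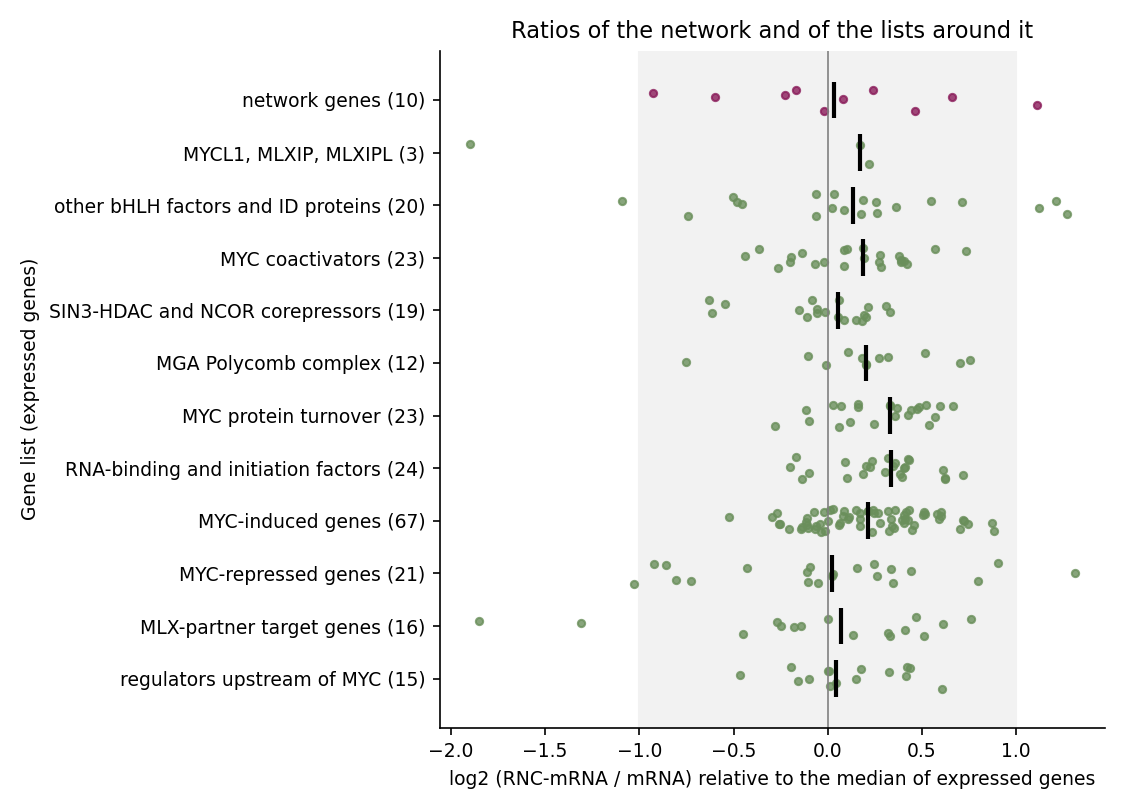
Translation ratio of each expressed gene (horizontal axis, log2, relative to the median of expressed genes) in the network and in 11 lists around it (rows, with the number of expressed genes), with the list median as a black bar and the zone within 2-fold of the median in grey. The network spans -0.93 to 1.11, and MLXIPL lies outside the grey zone at -1.90.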

How the data were processed

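The authors deposited RPKM values, per the file headers, with 1 RefSeq record for each gene symbol and 1 column for each library. Per the submitters' processing notes, they used build hg19. Mapper, counter and strand setting are not given in the sources used here, and neither is the rule for reads matching several genes, which can move paralogs and overlapping genes. Reads were recovered from the values, since RPKM scales whole reads by length and library total. The total taken was the lowest one that kept the most whole reads over genes with a GENCODE release 29 length. At that total 1724 of 14285 genes were whole in the RNC-mRNA library (1223 at the next best nearby) and 1969 of 15315 in the mRNA library (1324). A gene's reads were read at the length nearest its reference transcript at which both values were whole, allowing a relative error of 2e-07 beyond the rounding of 7 digits. The fewest such reads were used where that length was over 30% away or no reference length was matched. The recovery was tested on simulated data, with the search held near the true totals and with reference lengths exact or close. The real search ran from 5000000 to 25000000 reads. The test was thus easier than the data and cannot show that the real reads are right.

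Translation ratios used a pseudocount of 0.1 RPKM, which pulls the ratios of low genes towards 0, and were centred on the median of expressed genes (-0.04). With 1 library per group no test was made; a 2-fold distance from the median was the rule of size. Ratio intervals are exact Clopper-Pearson or conditional exact 95% intervals, level intervals are exact Poisson, and intervals of summed levels use the delta method. List medians carry the order-statistic interval over genes. The members and the lists were chosen with earlier results of these data known. Named genes are the members, MYCL1, MLXIP and MLXIPL, and from each list the 2 most abundant and the highest and lowest ratio, with every gene at least 2-fold away where a list had at most 6; a few genes that this rule names are not reported here. PKM2 and TKFC were matched as PKM and DAK. Python 3.11.15, numpy 2.4.6, pandas 2.3.3, scipy 1.17.1, numba 0.67.0 and matplotlib 3.10.9 were used.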

Additional observations from a re-analysis of the deposited data

How the results depend on the processing

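The 11 alternatives to the settings left 8 members on their side of the median, while MXD1 (-0.14 to 0.08) and MLX (-0.04 to 0.18) changed side. The centre was -0.04 in the main setting, -0.14 with no filter and 0.08 on genes of at least 10 RPKM. With no filter, the counting intervals of MXD4 and MNT would include the median, and that of MLX would lie above it. Centred on genes of at least 10 RPKM, the interval of MGA would include it. MYC ranged from 0.54 to 0.76, MYCN from 0.99 to 1.21, MAX from 0.35 to 0.57, MXI1 from -0.72 to -0.50 and MXD3 from -1.04 to -0.79, all within their counting intervals. Centring on genes with a mean of at least 10 RPKM moved the median of all expressed genes to -0.12 and left 0 members at least 2-fold above and 1, MXD3, below. With a mean of at least 5 RPKM 1 member was at least 2-fold below. Counts over all genes rest on a gene total that changes with the filter. In the main setting, 184 of 13402 genes lay at least 2-fold above and 1576 at least 2-fold below. Raising the pseudocount to 1 RPKM left 102 above and 1046 below among the same 13402 genes. Requiring a mean of at least 5 RPKM left 62 above and 544 below among 9162 genes. Dropping the filter gave 599 above and 3040 below among 19255 genes. Member and list counts under these settings are to be read beside the all-gene counts of the same setting. With a pseudocount of 1 RPKM, 0 MYC-repressed genes, 0 other bHLH genes and 1 MLX-partner target were at least 2-fold below, and 0 markers of other cell types were 2-fold away on either side. With a mean of at least 5 RPKM, 2 MYC-repressed genes, 0 MLX-partner targets and 0 markers of other cells were below, and 0 of those markers above. With no filter, 2 MYC-repressed genes were above and 0 below, 0 other bHLH genes and 1 turnover gene were below, 2 epithelial markers were below, and 2 markers of other cells lay on each side. The medians of MYCL1, MLXIP and MLXIPL and of the RNA-binding factors were then 0.27 and 0.44. With a mean of at least 5 RPKM the median of MYCL1, MLXIP and MLXIPL turned to -0.92, since MYCL1 drops out. Centring on abundant genes put 2 MYC-repressed genes below. Requiring 10 reads in each library put 1 turnover gene below and 0 markers of other cells above. The cause of these shifts was not tested. Leaving MXD3 out, an alternative chosen after seeing the data, gave 2.16-fold for the difference in MYC and MYCN over the antagonists, against 2.29-fold with it. No paired analysis was possible because each group has 1 library.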

Other observations

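The transcripts of the network differed in their untranslated regions as annotated in GENCODE release 29. MYC had the shortest 3' untranslated region of the set at 476 bases and MXD1 the longest at 4661 bases, against a median of 993 bases over 11918 expressed genes. The letters ATTTA, the core of elements known to shorten the life of an mRNA, occurred 4 times in the region of MYC, or 8.40 per kilobase. That density was above 98.0% of expressed genes of known structure. MYCN held 2 copies, or 2.20 per kilobase, MXD1 held 10, and MXD4 and MNT held 0. The 5' untranslated region of MYC, at 525 bases, was longer than that of 90.2% of these genes, and that of MLX was 53 bases. Over the 11918 expressed genes of known structure the median ratio was -0.05 for the 3969 genes without ATTTA (interval -0.06 to -0.03). The median was 0.03 with 1 to 3 copies, 0.13 with 4 to 9 and 0.14 for the 1284 genes with 10 or more (interval 0.10 to 0.17). MYC (0.66), MGA (0.24) and MXI1 (-0.60) fall in the group of 4 to 9 copies, and MXD1 (-0.02) in that of 10 or more. Copies are counted here, not their density, and the part of region length and of level was not tested.

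The 1289 expressed genes with CACGTG in a RefSeq promoter had a median ratio of 0.08 (interval 0.05 to 0.11), and the 8957 without it had a median of 0.03 (interval 0.01 to 0.04). At least 2-fold below the median were 6.98% of genes with the motif and 9.23% of those without. The median level in the RNC-mRNA library was 12.4 RPKM with the motif and 10.02 RPKM without it. In the mRNA library it was 12.9 RPKM with the motif and 10.4 RPKM without it. The ratio also moves with level, and the part of level in this difference was not tested.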
